A study of Homo sapiens with 72 samples.

Results

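Rucaparib is a fluorescent inhibitor of PARP enzymes, so the amount of drug in a living cell can be read by flow cytometry. The comparison described here is between PEO1 cells with high and with low drug fluorescence after 24 h in 8.5 µM rucaparib. Its members were chosen from the sample labels alone, and they are 18 of the 72 libraries of the series. The 9 Ruc_High libraries came from the brightest 20% of rucaparib-positive cells and the 9 Ruc_Low libraries from the dimmest 20%, as the study describes its gates. Each gate had 3 replicate numbers with 3 libraries under each number, and the estimated reads of those 3 libraries were summed, giving 3 samples against 3, paired by number. PEO1 is an established line of high-grade serous ovarian carcinoma with a mutated BRCA2 gene. Both gates held the same line, the same dose and the same exposure, so the groups differ by gate and not by treatment. The remaining libraries hold the same gates at 2 h and unsorted cells given rucaparib (Ruc_Total) or the DMSO carrier (Vehicle) at 2 and 24 h. The sorted cells were detached, filtered and sorted on ice, whereas the unsorted cells were lysed in the dish, so the step of handling differs between sorted and unsorted groups but not between the gates. A single line limits the groups as a model, and no label says whether the 3 libraries under a number came from separate cultures. The p-values and standard errors therefore rest on the spread between numbered replicates. That spread was estimated jointly over all 24 summed samples of the series, not over the 3 pairs of gates alone.

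Rucaparib is a weak base, and weak bases collect in acidic compartments such as lysosomes, where protonation holds them. The uptake of a drug also depends on carriers in the plasma membrane, its loss on ABC efflux pumps and its breakdown on cytochrome P450 enzymes. FOXO transcription factors are kept out of the nucleus by AKT signalling and switch on genes of cell cycle arrest, proteolysis and cell death when that signalling is low. The aryl hydrocarbon receptor (AHR) is a ligand-activated factor that drives the CYP1 enzymes. Metallothioneins are small zinc-binding proteins whose genes are switched on by metal through the factor MTF1.

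The 18 libraries held between 27747511 and 36152646 estimated reads, and the 6 summed samples between 92860647 and 103132157. A mean of 2734 to 3248 bases of transcript length and a mitochondrial share of 0.316% to 5.17% of reads spanned the libraries. The mitochondrial share was lower in Ruc_High than in Ruc_Low under each number, at 3.48% against 3.93%, 1.439% against 2.01% and 2.44% against 2.94%. Single libraries of a number overlapped between the gates. Under number 1 they ranged from 0.982% to 4.79% in Ruc_High and from 1.72% to 5.17% in Ruc_Low. Markers of serous ovarian cancer were present: 14 of 15 reached the filter, with PAX8 at 233, 159 and 232 CPM (the reads of a gene per fixed number of reads in the sample, TMM-scaled) in the Ruc_High replicates 1, 2 and 3 and 236, 174 and 227 CPM in Ruc_Low, whereas FOLR1 and MUC1 stayed at or below 0.152 CPM. Of 9 leukocyte markers, 7 failed the filter, PTPRC and CD3E among them. Of 9 fibroblast markers 5 reached it. THY1 averaged 129 CPM over the 6 samples, FAP 29.9 and COL1A1 9.48, whereas COL1A2 averaged 0.133 and PDGFRB 0.0905. Of 7 endothelial markers 4 reached the filter, with CDH5 at a mean of 14 CPM and VWF, TEK and KDR at 0.303, 0.161 and 0.146 CPM. No fibroblast or endothelial marker differed between the gates at an adjusted p under 0.05. The Ruc_Low sample of replicate 1 stood apart in metallothionein and other zinc- and stress-related genes, which is described with those genes.

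Of 19834 genes tested, 113 were higher in Ruc_High than in Ruc_Low at an adjusted p under 0.05 (0.57% of the genes tested) and 3 were lower (0.0151%). The fitted difference lay above 0 for 47% of all genes tested. Counts of list members above or below 0, given further on, stand beside that share and were not tested. The fold difference of the 113 genes had a median of 1.91, and 47 of them exceeded 2-fold while 21 stayed under 1.5-fold. In 112 of them Ruc_High lay above Ruc_Low under each of the 3 numbers. All 3 Ruc_High samples lay above all 3 Ruc_Low samples for 101 of the 113, against 5.23% of all genes tested, and the reverse order held for 3.54% of all genes. Within every number, each Ruc_High library lay above each Ruc_Low library for 96 of the 113 genes. The share of all genes with that order was not computed. The 113 genes were called on these same libraries, so the counts of 112, 101 and 96 are no separate support. Of the 113 genes 65 averaged at least 5 CPM and 48 less, 18 of them under 1 CPM. Ratios by replicate number are given below with 0.1 CPM added to both values. A CPM is a share of the reads of a sample, so a larger share of cells that carry an RNA and more of that RNA per cell cannot be told apart, nor can a change in the total RNA of a cell be seen.

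**Figure D1:**
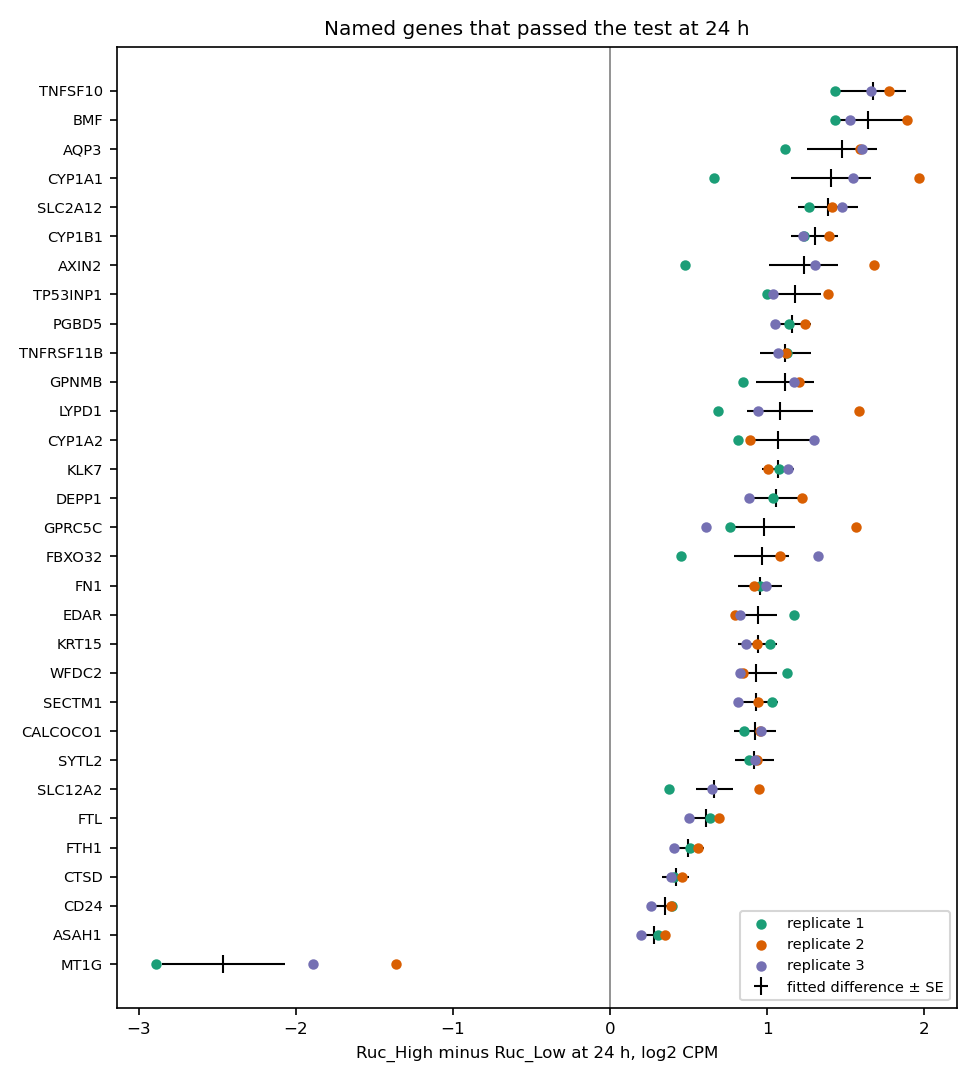
The difference between Ruc_High and Ruc_Low at 24 h (log2 CPM, 0.1 CPM added) in each replicate number (coloured points) and the fitted difference with its standard error (black) for the 31 named genes that passed the test and averaged at least 1 CPM. All 3 points lie right of 0 for 30 genes, from ASAH1 at 0.28 to TNFSF10 at 1.67, and left of 0 for MT1G.

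Several genes linked to FOXO activity were higher in Ruc_High. BMF, which encodes a BH3-only protein that promotes apoptosis, had 39, 47.8 and 29.2 CPM in Ruc_High against 14.4, 12.8 and 10.1 CPM in Ruc_Low. The groups did not overlap, with 3.12-fold more in Ruc_High (log2 difference 1.64 ± 0.22, SE, n = 3 pairs, adjusted p = 0.0011). TP53INP1, a regulator of autophagy and cell death, measured 7.16, 12.4 and 7.94 CPM against 3.53, 4.7 and 3.82 CPM (1.18 ± 0.16, adjusted p = 0.0013). FBXO32, the ubiquitin ligase subunit known as atrogin-1, measured 15, 22.2 and 18.7 CPM against 11, 10.4 and 7.4 CPM, a difference of 0.97 ± 0.17 (adjusted p = 0.011). FBXO32 separated least under replicate number 1, where the ratio was 1.37, against 2.12 and 2.5 under the others. These 3 genes were the members that passed of 23 tested on a list of FOXO targets, and 19 of the 23 lay above 0, with a median log2 difference of 0.28 against -0.01 over all genes tested. The median by number was -0.06, 0.41 and 0.36, so the list as a whole did not lie above 0 under number 1. PIK3IP1 (0.86, adjusted p = 0.15) and CCNG2 (0.54, adjusted p = 0.44) did not pass, and GADD45B had -0.81 (adjusted p = 0.21).

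DEPP1, a peroxisomal and autophagy-linked protein whose gene is also a FOXO target, was not on the list and measured 22.1, 30.7 and 25 CPM in Ruc_High against 10.7, 13.1 and 13.5 CPM in Ruc_Low (1.05 ± 0.19, adjusted p = 0.0097). TNFSF10, the death ligand TRAIL, measured 5.17, 15.5 and 8.72 CPM against 1.86, 4.46 and 2.69 CPM, which was 3.18-fold more in Ruc_High (adjusted p = 0.0011). CALCOCO1, a receptor for the autophagy of endoplasmic reticulum, rose from 13.9, 20.8 and 14.5 CPM in Ruc_Low to 25.1, 40.4 and 28.3 CPM in Ruc_High (adjusted p = 0.0018). The factors themselves did not pass: FOXO1 measured 12.6, 12 and 12.9 CPM against 15.5, 11.8 and 12.6 CPM and FOXO3 228, 219 and 223 CPM against 233, 204 and 198 CPM, so their groups overlapped. The 200 bases before the start of DEPP1 held the FOXO core letters GTAAACA, and they are shown with these letters in capitals (chr10:44978810-44979009, minus strand, RefSeq, GRCh38.p14).
DEPP1: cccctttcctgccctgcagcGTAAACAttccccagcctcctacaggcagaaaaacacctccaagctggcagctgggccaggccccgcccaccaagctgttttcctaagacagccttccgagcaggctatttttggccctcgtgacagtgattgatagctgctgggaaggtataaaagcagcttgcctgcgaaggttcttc
The core, searched on both strands, was in 4 of 73 promoters found for the genes called higher (5.48%) and in 1.92% of 12769 promoters of genes tested.

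BMF was the single member of 16 BCL2 family genes tested that passed, and the list had a median of 0.03. TP53INP1 was likewise the single member that passed of 24 p53 targets, whose median was -0.02. CDKN1A, the p53 target that encodes the cell cycle inhibitor p21, measured 33.5, 26.6 and 30.1 CPM in Ruc_High against 32.1, 32.2 and 33 CPM in Ruc_Low, and MDM2 measured 43, 40.7 and 44.4 CPM against 40.6, 42.8 and 46.1 CPM. Neither passed the test (adjusted p = 0.97 and 1.00).

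The CYP1 enzymes, which oxidise drugs and polycyclic compounds, rose together. CYP1B1 measured 21.4, 34.8 and 17 CPM in Ruc_High and 9.02, 13.2 and 7.23 CPM in Ruc_Low (1.30 ± 0.15, adjusted p = 0.00043). CYP1A1 measured 4.11, 6.95 and 3.63 CPM and 2.56, 1.7 and 1.18 CPM (1.40 ± 0.26, adjusted p = 0.011), and CYP1A2 1.46, 2.16 and 1.84 CPM and 0.787, 1.12 and 0.693 CPM (1.07 ± 0.20, adjusted p = 0.016). CYP1A1 and CYP1A2 are neighbouring genes on chromosome 15 with related sequence, and reads could have been shared between them. CYP1B1 lies at chromosome 2, 38066973 to 38109902 (GRCh38) and is the most even of the 3, with ratios of 2.36, 2.62 and 2.34 by number. The receptor AHR itself measured 31.2, 32.6 and 34.7 CPM against 37.2, 27.3 and 29.4 CPM and did not pass, and nor did its feedback genes AHRR (-0.29) and TIPARP (-0.10). Of 11 genes tested on the AHR list, 3 passed, all higher, and the median was 0.08. The 120 bases before the start of CYP1A1 (chr15:74725529-74725648, minus strand, RefSeq, GRCh38.p14) are shown with the AHR core letters GCGTG in capitals.
CYP1A1: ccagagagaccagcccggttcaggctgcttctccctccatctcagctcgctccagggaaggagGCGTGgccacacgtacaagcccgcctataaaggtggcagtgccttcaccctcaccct
These short letters are common, being in 43.5% of promoters of genes tested and 37% of those called higher.

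**Figure D2:**
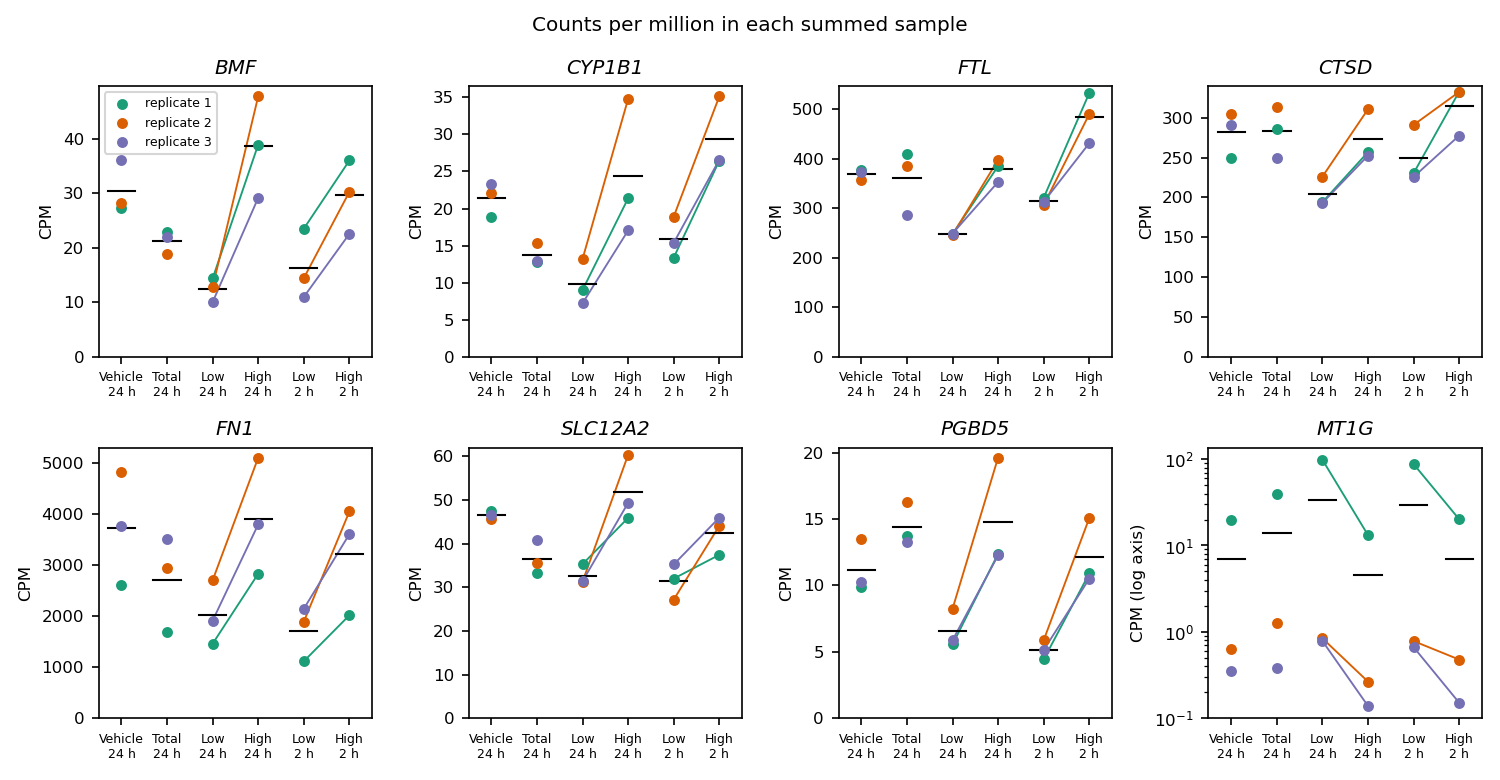
CPM of 8 genes in each summed sample, by group (horizontal axis) and replicate number (colour), with the group mean as a bar and lines joining the gates of the same number. Ruc_High lies above Ruc_Low under every number at 24 h for BMF, CYP1B1, FTL, CTSD, FN1, SLC12A2 and PGBD5, and MT1G (log axis) lies lower in Ruc_High, with replicate 1 far above the others in both gates.

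Ferritin, the protein shell that stores iron, rose in both of its chains. FTL, the light chain, had closely grouped values of 385, 397 and 353 CPM in Ruc_High against 248, 246 and 249 CPM in Ruc_Low (0.61 ± 0.10, adjusted p = 0.0035). FTH1, the heavy chain, had 6454, 6962 and 5414 CPM against 4533, 4715 and 4077 CPM (0.49 ± 0.10, adjusted p = 0.035). Many processed copies of both genes exist in the genome, so their estimated reads may be divided among copies. No other member of the 13 iron genes tested passed: the transferrin receptor TFRC had 0.06, the ferritin autophagy receptor NCOA4 0.07 and HMOX1, which frees iron from haem, 0.43 (adjusted p = 0.52). Of 19 NRF2 targets tested, AKR1C2 and AKR1C3 passed, at levels under 1 CPM in each sample (0.487, 0.811 and 0.642 CPM in Ruc_High against 0.262, 0.366 and 0.292 CPM in Ruc_Low for AKR1C3). Of 13 alternative fits that kept all replicates and tested these genes, AKR1C2 was called in 6 and AKR1C3 in 2. The AKR1C reductases are near-identical paralogs, so the split of reads between them is uncertain. NQO1 measured 152, 181 and 172 CPM against 129, 161 and 171 CPM and the factor gene NFE2L2 had 0.21, and neither passed.

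Among lysosomal genes the differences were small and few passed. CTSD, the aspartic protease cathepsin D, measured 257, 311 and 252 CPM in Ruc_High against 194, 226 and 193 CPM in Ruc_Low, with all Ruc_High samples on top (0.42 ± 0.09, adjusted p = 0.032). ASAH1, the acid ceramidase, measured 49, 54.4 and 51.8 CPM against 39.7, 42.7 and 45.2 CPM and had the smallest difference of the 113 genes (0.28 ± 0.06, adjusted p = 0.045). Of 14 alternative fits that kept all replicates, CTSD was called in 8 and ASAH1 in 5. GPNMB, a membrane glycoprotein of lysosomes and melanosomes whose gene is a target of MiT factors, measured 3.7, 4.15 and 3.63 CPM against 2.01, 1.75 and 1.56 CPM (1.11 ± 0.18, adjusted p = 0.0047). Of 49 lumen proteins tested 2 passed and 38 lay above 0 (median 0.09), and the median was 0.14, 0.11 and 0.12 by number. None of 35 membrane proteins passed, 27 lay above 0 and the median was 0.10. For V-ATPase, the proton pump that acidifies the lysosome, none of 23 subunits passed and 15 lay above 0 (median 0.09).

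A list of 12 of the proteins named in the study was also read as RNA, and none of these 12 passed, while CTSD, which the study names too, is described above. LAMP1 measured 248, 261 and 320.5 CPM in Ruc_High against 224, 241 and 292 CPM in Ruc_Low, and LAMP2 97.4, 109 and 134 CPM against 87.1, 96.3 and 111 CPM. Each of these lysosomal membrane glycoproteins lay higher in Ruc_High under every number, by 0.13 and 0.20 on the log2 scale, with adjusted p = 0.66 and 0.68. SCARB2 had 0.15, APP 0.16, ATP6V1F -0.01 and CTSL -0.35, and TFEB, the MiT factor that governs lysosomal genes, had 0.16. The mitotic genes of the same list, AURKA, CCNB1, CCNB2 and TPX2, had log2 differences of -0.24, -0.25, -0.28 and -0.25. The study reports these mitotic proteins, and lysosomal proteins with CTSL among them, as enriched in Ruc_High. The RNA of CTSL and of the mitotic genes lay below 0 here without passing, and RNA and protein are unlike measures. The 120 bases before the start of CTSD (chr11:1763928-1764047, minus strand, RefSeq, GRCh38.p14) are shown because this gene had the larger of the differences that passed on the lumen list, with the E-box letters CACGTG, the core read by MiT factors, in capitals.
CTSD: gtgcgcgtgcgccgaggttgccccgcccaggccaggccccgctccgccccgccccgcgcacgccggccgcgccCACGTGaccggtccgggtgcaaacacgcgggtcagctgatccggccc
This E-box was in 8.47% of promoters of genes tested and in 8.22% of those called higher, so the shares were close.

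Genes that could move or bind the drug gave no call. None of 11 ABC efflux transporters passed: ABCB1, the pump known for rucaparib efflux, stayed at 0.0311, 0.071 and 0.0229 CPM in Ruc_High and 0.0629, 0.0418 and 0.0325 CPM in Ruc_Low, and ABCG2 at 0.664, 0.345 and 0.859 CPM and 0.766, 0.429 and 0.909 CPM. ABCB1 was too low for a difference to be detectable at this depth. None of 16 uptake transporters of organic cations and anions passed, and their median was 0.01. None of 19 PARP enzymes and PARG passed, with a median of -0.02. PARP1, the main target of the drug, measured 44.7, 35.7 and 91.9 CPM against 61.4, 47.4 and 72.1 CPM, and its single libraries ranged from 0.0534 to 101 CPM within Ruc_High. Between 9.65% and 11.5% of the reads of the 18 libraries fell on transcripts that no table used here ties to a gene, and their part in the spread of PARP1 was not tested.

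Several secreted and surface proteins of epithelial cells were higher in Ruc_High. FN1, the matrix glycoprotein fibronectin, measured 2834, 5108 and 3802 CPM in Ruc_High against 1462, 2705 and 1914 CPM in Ruc_Low. The ratio was nearly the same under every number, at 1.94, 1.89 and 1.99 (0.95 ± 0.14, adjusted p = 0.0019). KLK7, a secreted serine protease, measured 68.4, 132 and 95.9 CPM against 32.4, 65.6 and 43.7 CPM (1.07 ± 0.10, adjusted p = 6.9e-05), and KRT15, a basal keratin, 831, 1221 and 693 CPM against 410.5, 639 and 381 CPM (0.94 ± 0.13, adjusted p = 0.0011). WFDC2, the ovarian cancer serum marker HE4, had 21, 23 and 16.4 CPM against 9.59, 12.8 and 9.22 CPM and SECTM1, a secreted and membrane protein, 41.6, 55.9 and 34.4 CPM against 20.3, 29.1 and 19.6 CPM. In both, the lowest Ruc_High sample was above the highest Ruc_Low sample. CD24, a surface glycoprotein, was the single serous marker that passed of 14 tested, at 1612, 2091 and 1917 CPM against 1225, 1600.1 and 1597 CPM (0.35 ± 0.08, adjusted p = 0.045), while the keratins KRT7 (0.02) and KRT18 (0.05) and EPCAM (0.03) did not. MUC16 (0.48), CLDN4 (0.38), CLDN3 (0.30) and the scarce MUC1 (0.40) did not pass either, and 11 of the 14 markers lay above 0.

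FN1 was also the single member that passed of 28 matrix and adhesion genes (median 0.05). Chosen after their values were seen, the metalloproteinases MMP7 and MMP1 showed larger differences at lower levels. MMP7, or matrilysin, measured 2.81, 7.21 and 4.37 CPM in Ruc_High against 0.598, 1.87 and 0.974 CPM in Ruc_Low (2.09 ± 0.19, adjusted p = 4.1e-05). MMP1, a collagenase, measured 5.83, 4.29 and 4.76 CPM against 2.09, 1.41 and 2.07 CPM (1.43 ± 0.23, adjusted p = 0.0042), and their inhibitor TIMP2 had 0.36 ± 0.08 (adjusted p = 0.049). Of the squamous cornified-envelope genes, SPRR2A (1.95), SPRR1A (1.94) and SPRR2D (1.87) passed as well, all at or under 2.82 CPM in every sample, as did the immune checkpoint ligand VTCN1 at 2, 3.33 and 1.66 CPM against 0.483, 0.889 and 0.411 CPM. TNFRSF11B, the decoy receptor osteoprotegerin, had 15, 22.4 and 22.5 CPM against 6.82, 10.3 and 10.6 CPM (1.11 ± 0.16, adjusted p = 0.0018), and EDAR, the receptor of ectodysplasin, 7.27, 9.04 and 8.43 CPM against 3.17, 5.18 and 4.72 CPM (0.94 ± 0.12, adjusted p = 0.0011). LYPD1, a surface protein that modulates nicotinic receptors, was less even, with ratios of 1.61, 3 and 1.92 by number (adjusted p = 0.019), and so was the orphan receptor GPRC5C, with 1.69, 2.96 and 1.52 (adjusted p = 0.028).

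Among carriers and channels, SLC12A2, the sodium-potassium-chloride cotransporter that lets cells regain volume, measured 45.9, 60.4 and 49.4 CPM in Ruc_High against 35.3, 31.3 and 31.4 CPM in Ruc_Low (0.66 ± 0.12, adjusted p = 0.0082). The ratio was 1.3, 1.92 and 1.57 by number, so it was smallest under number 1. AQP3, a channel for water and glycerol, measured 6.62, 10.8 and 5.69 CPM against 3.01, 3.53 and 1.81 CPM (1.47 ± 0.22, adjusted p = 0.0026). These were the members that passed of 17 ion and volume transport genes (median 0.15). SLC2A12, a facilitative sugar transporter, measured 14.2, 20.3 and 19.6 CPM against 5.84, 7.59 and 6.99 CPM (1.39 ± 0.19, adjusted p = 0.0013), and SYTL2, which tethers Rab27 vesicles to the membrane, 25.2, 39.3 and 32.7 CPM against 13.6, 20.6 and 17.2 CPM (0.92 ± 0.12, adjusted p = 0.0011). PGBD5, a domesticated DNA transposase, had 12.4, 19.6 and 12.3 CPM against 5.56, 8.24 and 5.88 CPM (1.16 ± 0.11, adjusted p = 7e-05), and its ratios of 2.21, 2.37 and 2.07 stayed close to each other.

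Of 15 Wnt and Notch genes tested, AXIN2, the feedback inhibitor that reads out Wnt signalling, passed at 3.29, 8.81 and 5.29 CPM in Ruc_High against 2.33, 2.68 and 2.09 CPM in Ruc_Low (1.23 ± 0.22, adjusted p = 0.0091). Its ratio was 1.39 under number 1 and 3.21 and 2.46 under the others. The list had a median of 0.12, and the other Wnt readouts on it, LEF1 (0.13), SP5 (0.12) and NKD1 (0.18), did not pass. APCDD1, a Wnt inhibitor at the cell surface, and LGR6, a receptor of R-spondins, were chosen after their values were seen and had differences of 1.42 ± 0.23 (adjusted p = 0.0039) and 0.81 ± 0.18 (adjusted p = 0.049). IL1B was the member that passed of 19 NF-kB and chemokine genes, at 0.508, 0.639 and 0.584 CPM against 0.231, 0.241 and 0.227 CPM (adjusted p = 0.049), while the list's median was -0.03.

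The largest fitted value among the 113 genes, that of the readthrough transcript IFNAR2-IL10RB, rested on 1 sample. It was at 0, 0 and 3.22 CPM in the Ruc_High replicates and at 0 in all 3 Ruc_Low replicates, and it overlaps both parent genes, so its reads cannot be told apart from theirs. It is the exception among the 113 genes that was not higher under each number.

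Of the 3 genes called lower 2 are metallothioneins, and all 3 had most of their reads in replicate 1. MT1G measured 13.2, 0.264 and 0.137 CPM in Ruc_High against 98.5, 0.837 and 0.779 CPM in Ruc_Low (-2.46 ± 0.39, adjusted p = 0.0036). It was lower in Ruc_High under each number, but replicate 1 held nearly all the reads, and without that replicate the difference was -2.08 with adjusted p = 0.21. MT1B was at 0.529, 0 and 0 CPM against 3.09, 0.0209 and 0 CPM, so its call (adjusted p = 0.047) stood on replicate 1, without which it failed the filter on low counts. CCDC13-AS2, an antisense RNA, measured 0.394, 0.071 and 0.0687 CPM against 1.89, 0.146 and 0.249 CPM (-1.84 ± 0.36, adjusted p = 0.02; -1.47 and adjusted p = 0.30 without replicate 1).

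All 11 genes tested on the metallothionein list, which also holds the zinc exporter SLC30A1 and the factor MTF1, lay below 0, with a median of -0.87, and 2 passed. The medians by number were -1.85, -0.15 and -0.30. MT1X measured 315, 31.3 and 24.1 CPM in Ruc_Low and 55.3, 26.6 and 17.7 CPM in Ruc_High (-1.22 ± 0.40, adjusted p = 0.30), and MT2A 1484, 658 and 585 CPM and 645, 572 and 461 CPM (-0.62 ± 0.21, adjusted p = 0.32). The Ruc_Low sample of replicate 1 was thus the one that stood out most, and it did so in each of its 3 libraries, at 244 to 435 CPM of MT1X. Replicate 1 was also highest in unsorted cells at 24 h for some of these genes. MT1X had 86.1, 36.3 and 24.5 CPM in Vehicle and 112, 44.8 and 21.6 CPM in Ruc_Total. MT1G had 19.8, 0.632 and 0.346 CPM in Vehicle and 40, 1.25 and 0.379 CPM in Ruc_Total. MT2A (882, 914 and 730 CPM) and MT1F (15.5, 19.4 and 9.72 CPM) did not have this order in Vehicle. At 2 h the libraries of Ruc_Low replicate 1 held 263 to 430.1 CPM of MT1X, against 30.2 to 38.3 CPM in replicate 3. SLC30A1 had 169, 39.3 and 35.6 CPM in Ruc_Low and 47, 35.5 and 34.5 CPM in Ruc_High. The clock gene PER1 had 23.2, 7.83 and 6.86 CPM and 6.73, 6.71 and 6.63 CPM and the stress gene GADD45B 209, 78.9 and 56.5 CPM and 69.2, 62.7 and 41.8 CPM, with the same sample on top. Metallothionein genes lie side by side on chromosome 16 and are closely similar in sequence, so the division of reads among them is uncertain.

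The 200 bases before the starts of MT2A (chr16:56608384-56608583, plus strand) and MT1X (chr16:56682270-56682469, plus strand; both RefSeq, GRCh38.p14) are shown because all members tested lay below 0, with matches to the metal response core TGCNCNC on either strand in capitals.
MT2A: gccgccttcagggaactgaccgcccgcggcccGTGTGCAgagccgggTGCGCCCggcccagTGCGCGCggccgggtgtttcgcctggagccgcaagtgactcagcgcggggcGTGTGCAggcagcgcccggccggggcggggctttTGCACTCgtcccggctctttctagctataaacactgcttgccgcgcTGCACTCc
MT1X: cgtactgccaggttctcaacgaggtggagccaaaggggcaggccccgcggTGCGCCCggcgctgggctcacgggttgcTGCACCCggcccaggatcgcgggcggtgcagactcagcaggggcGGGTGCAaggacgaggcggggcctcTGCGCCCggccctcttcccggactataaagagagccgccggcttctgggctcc
MT2A held 6 matches and MT1X 4 in these windows. Of 6 promoters found for the list 5 held at least 1 match within 250 bases, against 56% of promoters of genes tested and 54.8% of those called higher.

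Several large programmes gave no call, and their medians lay close to 0 or below it. For G2 and mitosis none of 57 genes passed, 53 lay below 0 and the median was -0.26, with -0.02, -0.43 and -0.24 by number. TOP2A, a topoisomerase of dividing cells, measured 161, 195 and 242 CPM in Ruc_High against 156, 264 and 279 CPM in Ruc_Low and MKI67, the proliferation marker, 94.9, 75.4 and 117 CPM against 115, 113 and 130.2 CPM. Under number 1 the list's median was thus near 0, with TOP2A slightly higher and MKI67 lower in Ruc_High, and under numbers 2 and 3 both genes were lower there. None of 34 genes of G1 to S and replication passed (median -0.11), nor any of 31 genes of homologous recombination (median -0.13). For the integrated stress response, which lowers protein synthesis and induces ATF4 targets, all 18 genes tested lay below 0 without passing (median -0.20). ASNS, an ATF4 target, had 73, 85.8 and 95 CPM against 78, 115 and 117 CPM and TRIB3 125, 144 and 127 CPM against 129, 184 and 147 CPM. All 13 mitochondrially encoded genes lay below 0 as well (median -0.29), and none passed. The mitochondrial share of reads, also lower in Ruc_High, is made up of these same genes.

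None of the lists for cholesterol and fatty acid synthesis (28 genes tested), glycolysis and hypoxia (27), interferon response (29), immediate early genes (27), heat shock proteins (13), the unfolded protein response (17), cytosolic ribosomal proteins (43) or epithelial-mesenchymal factors (22) had a member that passed, and their medians ran from -0.11 to 0.07. The part that cell cycle position, mitochondrial share or the replicate 1 sample had in the differences above was not tested.

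**Figure D3:**
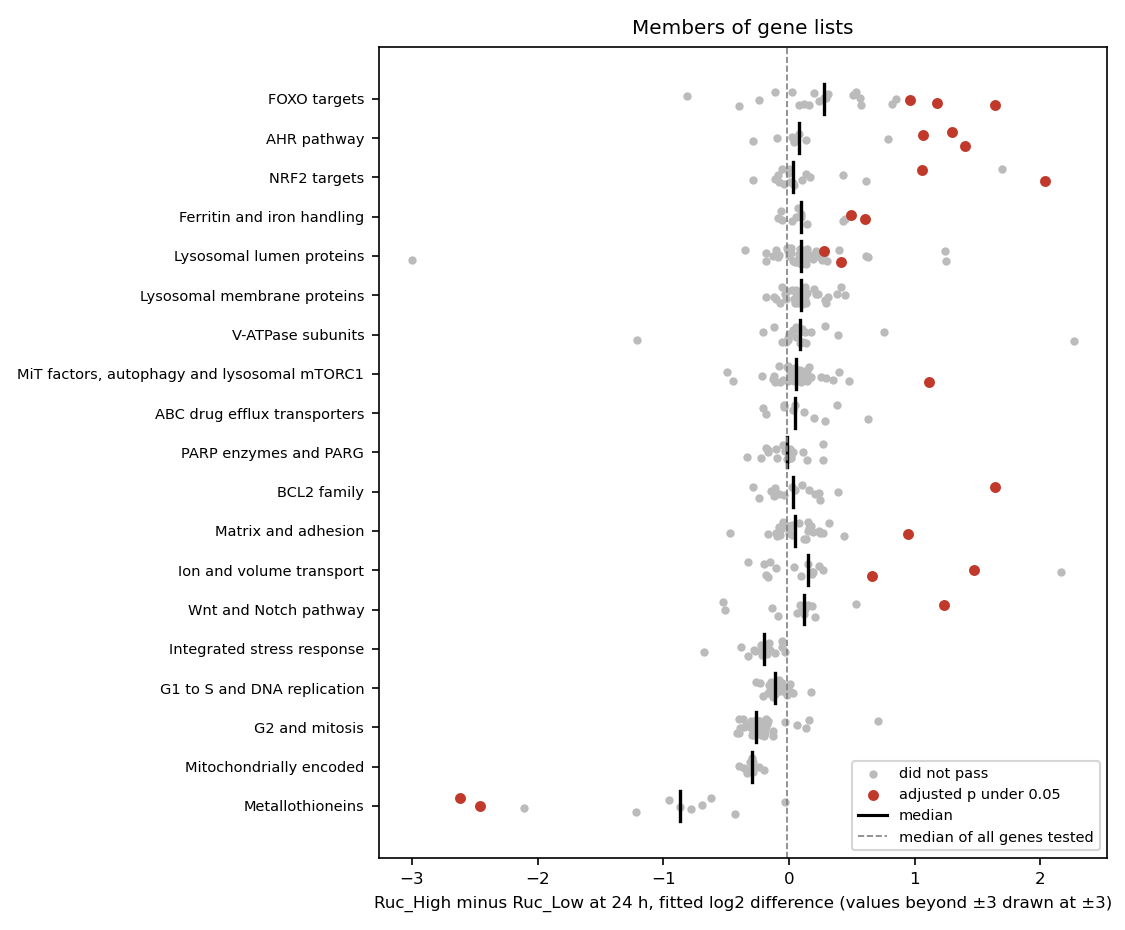
Fitted log2 difference between Ruc_High and Ruc_Low at 24 h (horizontal axis) for the tested members of 19 gene lists, with members that passed in red, each list's median as a black bar and the median of all genes tested as a dashed line. Red points lie on the right in the FOXO, AHR, NRF2, ferritin, lysosomal lumen, MiT, BCL2, matrix, ion and volume transport, and Wnt lists. The ABC efflux list has none. The metallothionein list lies wholly left of 0, and the G2, stress response and mitochondrial lists have medians left of 0 without red points.

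**Figure D4:**
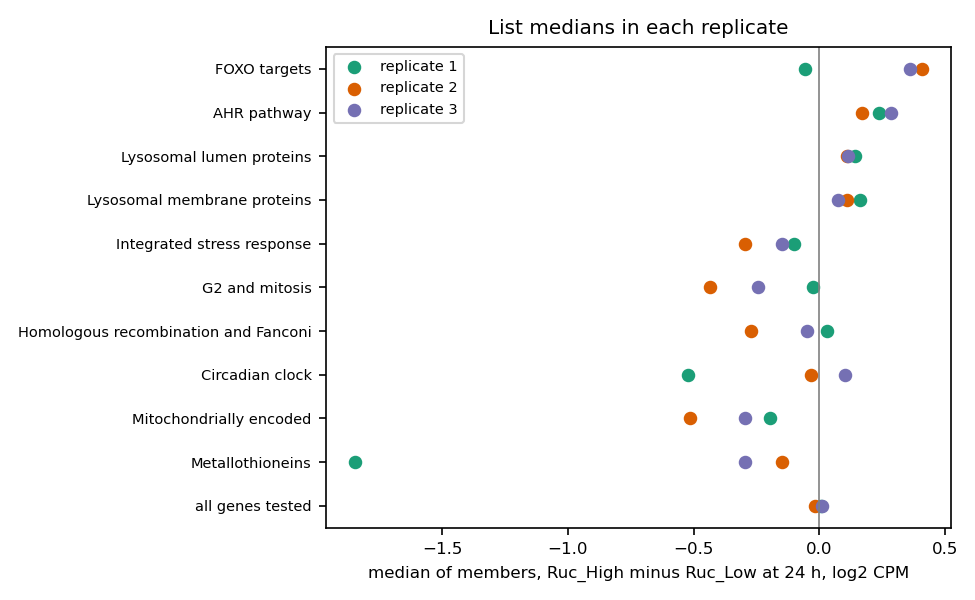
Median log2 CPM difference between Ruc_High and Ruc_Low at 24 h over the members of 10 lists and over all genes tested, by replicate number (colour). The lysosomal lists give 0.14, 0.11 and 0.12 for lumen proteins under all 3 numbers, whereas the metallothionein list gives -1.85 under number 1 and the mitotic list -0.43 under number 2.

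The gates at 2 h, taken from other libraries, gave a view of the same genes soon after the drug was added. Of 19834 genes, 72 were higher in Ruc_High at 2 h (0.363%), and 60 of these were among the 113 called at 24 h, which is 53.1% of the 24 h genes and 83.3% of the 2 h genes. At 2 h, 112 of the 113 genes lay above 0 with a median of 0.72, and the exception was IFNAR2-IL10RB. BMF measured 36, 30.3 and 22.6 CPM in Ruc_High against 23.5, 14.4 and 11 CPM in Ruc_Low at 2 h (0.87, adjusted p = 0.13) and did not pass there. KLK7 (0.93), PGBD5 (1.23), FTL (0.62) and CYP1B1 (0.89) passed at both times. The 24 h value was the larger for 88 of the 113 genes, but they were picked on their 24 h values, so this count is not read as growth with time. Tested directly, the difference between the times passed for 0 genes by edgeR (303 at an unadjusted p under 0.05), against 2 by DESeq2. For BMF the change from 2 to 24 h was 0.77 ± 0.31 on the log2 scale (unadjusted p = 0.022), which did not pass after adjustment. BMF too was picked on its 24 h value, so its change is not read as growth with time either. Of the 113 genes, 6 had an unadjusted p under 0.05 for this change. MT1G also lay lower in Ruc_High at 2 h, at 20.1, 0.475 and 0.15 CPM against 87.9, 0.778 and 0.662 CPM.

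The unsorted cells at 24 h were set beside the gates, with the difference in handling set out above. The mean of Ruc_Total lay between the gate means for 92 of the 113 genes, above Ruc_High for 7 and below Ruc_Low for 14. For the mean of Vehicle these counts were 89, 20 and 4. The genes were picked for a gap between the gates, so these counts do not place the gates relative to the treated culture. BMF had 22.9, 18.8 and 22.1 CPM in Ruc_Total and 27.2, 28.2 and 36.1 CPM in Vehicle, so Ruc_Low lay under both, and Ruc_High lay above Vehicle under numbers 1 and 2 and below it under number 3. FN1 had 1691, 2944 and 3509 CPM in Ruc_Total and 2604, 4831 and 3763 CPM in Vehicle. In the comparison of Ruc_Total with Vehicle, 12.9% of all genes tested were higher and 10.5% lower. Of the 113 genes, 37 (32.7%) were lower in Ruc_Total than in Vehicle and 10 (8.85%) higher, with a median of -0.26 against 0.02 over all genes. SLC2A12 (-1.10, adjusted p = 0.0012), AXIN2 (-1.20, adjusted p = 0.0016) and CYP1B1 (-0.66, adjusted p = 0.0057) were lower with rucaparib, while WFDC2 (0.71, adjusted p = 0.0017) and PGBD5 (0.37, adjusted p = 0.026) were higher. Apart from IFNAR2-IL10RB, the largest value among the 113 genes was that of MMP1, with 7.22, 8.53 and 8.38 CPM in Ruc_Total against 1.06, 1.08 and 0.858 CPM in Vehicle (3.00). The integrated stress response list, at a median of -0.20 between the gates, had a median of 0.65 between Ruc_Total and Vehicle.

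**Figure D5:**
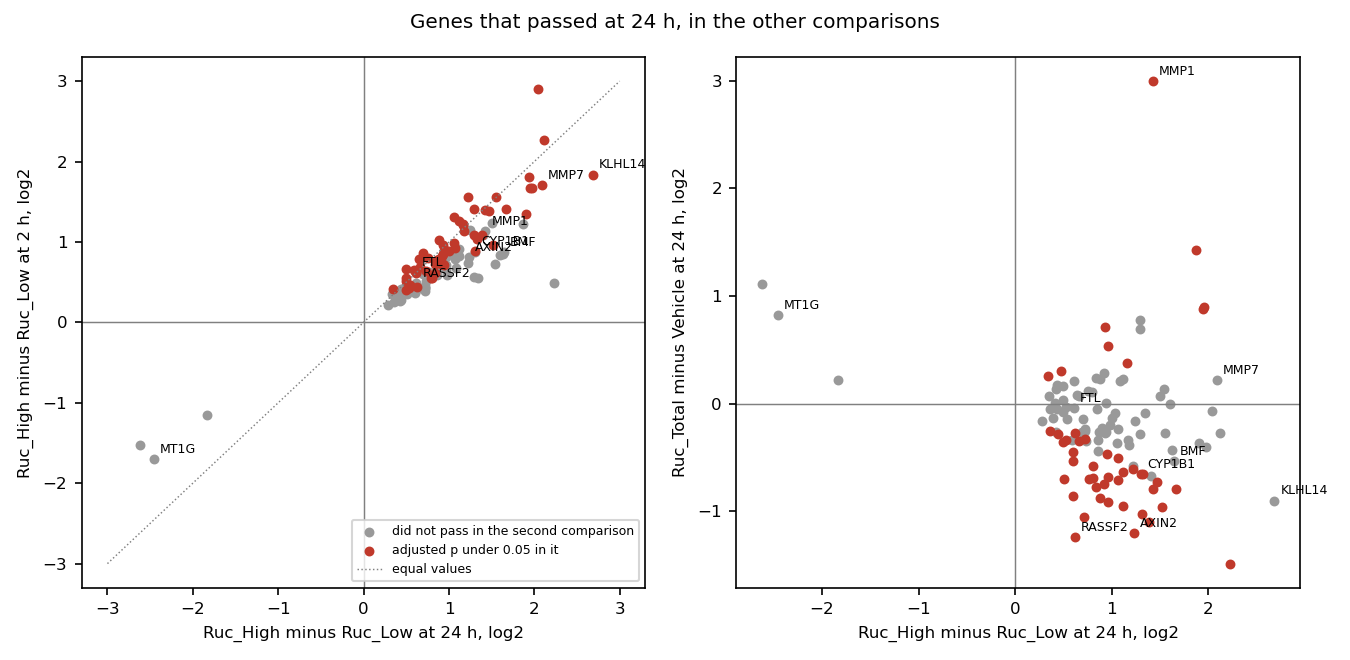
Log2 difference between Ruc_High and Ruc_Low at 24 h (horizontal axis) for the genes that passed, IFNAR2-IL10RB left out, against the same gates at 2 h (left) and Ruc_Total against Vehicle at 24 h (right), with genes that also passed there in red. On the left the points lie along the line of equal values with 60 of 113 genes in red, and on the right 37 red points lie below 0 and 10 above it, counting IFNAR2-IL10RB.

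The count of calls leaned on the paired design, on all 3 replicates and on fitting all groups together. With the block fitted to the 6 samples of the gates alone, 22 genes were higher and 0 lower, and 18 of the 22 were among the 113. Without the replicate block 21 genes were higher and 0 lower, and without replicate 1, 2 or 3 the higher genes numbered 34, 1 and 4. All of the 113 that could be tested lay above 0 each time. They were picked on all 3 replicates, and 112 were higher in each of them, so this sign is no separate support. VTCN1, BMF, CYP1B1 and PGBD5 were called under every alternative that kept all replicates, and these were the only 4 of the 113. CD24, for example, was called in 6 of 14 such alternatives.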

How the data were processed

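Poly(A) RNA of PEO1 cells was sequenced as 72 libraries. Per the labels, cutadapt 4.7, Salmon (version not given in the sources used here), DESeq2 1.44.0 and GRCh38 were used. The authors deposited Salmon estimated counts and TPM per transcript for each library. Estimated counts were summed over the transcripts of a gene (GENCODE 29) and over the 3 libraries of a replicate number, then rounded to whole numbers. Of 257369 transcripts 62932 were in no table used here and were left out. A negative binomial model with edgeR 4.0.16 (R 4.3.3, quasi-likelihood test, TMM scaling, low counts removed by filterByExpr) was fitted to 24 summed samples with group and replicate number as terms, and p-values were adjusted by the Benjamini-Hochberg method over 19834 genes with a threshold of 0.05. CPM values were TMM-scaled.

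The replicate number was a block in the main fit, since both gates of a number are taken as sorted from the same treated cells, and the study's reporting summary places replicate sorts on different days. At 24 h, samples of both gates with 1 number departed together from their group means (Pearson r across genes, which are not independent replicates, 0.30, 0.32 and 0.42) and those with different numbers did not (-0.30 to -0.04). Departures from a mean cancel within a group, so the values for different numbers follow in part from the others. No label names the day, and the paper's methods describe no RNA sequencing of these sorted cells. Alternatives used DESeq2 1.42.0, limma 3.58.1 on the deposited TPM as log2(TPM + 1) or log2(TPM + 0.1), limma-voom on single libraries, and other filters, scalings and samples.

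Named genes were, among those called with a mean of at least 5 CPM and 1 direction in 3 of 3 replicates, up to 20 with the largest increase and 10 with the largest decrease, with all called lower if at most 5, up to 3 called members per list and direction, up to 5 per direction with the largest change between times, a list of 12 proteins named in the study, and FOXO1, FOXO3, AHR, TFEB, NFE2L2 and PARP1. Other genes were chosen after their values were seen. The members and the 40 gene lists were chosen with earlier results of these data known. Reads of paralogs and of overlapping genes may be split between them. Promoters were RefSeq sequences of GRCh38.p14, searched over 250 bases before each start. Some items are not reported here.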

Additional observations from a re-analysis of the deposited data

Results flagged for a closer look

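The second library of Ruc_Low replicate 1 at 24 h held 27747511 estimated reads, fewer than the other 8 libraries of its gate by a gap larger than Dixon's 95% critical value for 9 libraries. The 10 tests made covered 5 measures of the libraries in each 24 h gate, this was the single value past the limit, and chance passes about 1 in 20 such tests. The other groups were not part of these tests, and the second library of Ruc_Low replicate 2 at 2 h was shallower still, at 17391033 estimated reads.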

How the results depend on the processing

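The count of genes higher in Ruc_High at 24 h (113, with 3 lower) depended on the fit, and the cause was not tested. Without the replicate block 21 genes were higher and 0 lower. The block fitted to the 6 samples alone gave 22 and 0, and to the 12 sorted samples 70 higher, with 18 and 56 of the higher genes among the 113. DESeq2 gave 247 and 44, an effective length offset 70 and 6, and transcript length as a covariate 193 and 21. log2(TPM + 1) gave 58 higher and log2(TPM + 0.1) 55, with 49 and 51 of them among the 113. limma-voom on single libraries gave 313 and 165, so that 65.5% of calls were higher against 97.4% in the main result. Without libraries under 2800 bases 12 genes were lower, and without the 6 libraries of the 24 h gates with the shortest mean transcript length, an alternative chosen after seeing the data, 7 were lower. Leaving out 1 replicate gave 1 to 34 higher and 0 to 1 lower with the block, and 0 of both without it, an alternative also chosen after seeing the data. Without replicate 2 the call left was MMP7, and without replicate 3 those left were BMF, FN1, CYP1B1 and KLK7. The difference between 2 and 24 h passed for 0 genes, against 2 by DESeq2, 1 without a filter and 1 with the length covariate. No named gene that passed changed direction under an alternative that tested it, and a call was lost in 320 of the values recomputed. Of the named genes that did not pass, 6 changed sign, each without passing. FOXO1 (-0.09) had 0.23 with the effective length offset, 0.62 on log2(TPM + 1), 0.75 on log2(TPM + 0.1), 0.028 without replicate 1 and the block and -0.15 to 0.027 with 1 replicate left out. TFEB (0.16) had -0.018 with the effective length offset, -0.0043 without replicate 2 and the block and -0.013 to 0.29 with 1 replicate left out. FOXO3 (0.07) had -0.023 without the 6 shortest libraries. AHR (0.08) had -0.017 without the 6 shortest libraries, -0.027 without replicate 2 and the block, -0.0068 without replicate 3 and the block and -0.020 to 0.25 with 1 replicate left out. PARP1 (-0.22) had 0.094 without replicate 1 and the block, 0.016 without replicate 2 and the block and -0.44 to 0.0051 with 1 replicate left out. ATP6V1F (-0.01) had 0.078 without libraries under 2800 bases, 0.051 without the 6 shortest libraries, 0.014 on log2(TPM + 1), 0.014 on log2(TPM + 0.1), 0.025 without replicate 3 and the block and -0.055 to 0.029 with 1 replicate left out.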
